A study of Mus musculus with 9 samples.

Results

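Liver makes cholesterol and fatty acids from acetyl-CoA, and the genes of both routes were followed in mice that received a vector encoding interferon-α. The genes are 31 listed enzymes of sterol synthesis and of fatty acid synthesis (lipogenesis) with their regulators, each taken as the probe set that carries its symbol in the platform annotation. A probe set with that symbol was present for 29 of the 31, 19 of them sterol genes and 10 lipogenic genes, out of 22142 probe sets on the array. No probe set carries the symbol Tm7sf2 or Srebf1 here, and each of the 29 other genes had 1 probe set. All 29 passed the filter on low values, a log2 value above 5 in at least 2 arrays of 1 group, which 14715 probe sets passed in all.

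Expression was measured in the livers of 9 C57BL/6 wild-type mice, 6 weeks old according to the labels and female according to the methods, on 1 Affymetrix array per mouse, 15 days after treatment. The 3 mice of the AAV combination group received AAV-IFNα together with AAV-L37pA, a vector for a peptide that mimics apolipoprotein A-I. The 3 mice of the AAV-IFNα group received AAV-IFNα alone, and the 3 Mock mice were not injected. Both vectors were adeno-associated virus of serotype 8 with the elongation factor EF1α promoter, which is not limited to hepatocytes, and were given once into a vein under anaesthesia. A group with only AAV-L37pA or with an empty vector is not among the arrays, and combination mice received more vector in total, so effects of the transgene and of the injected vector cannot be told apart. Values are log2 intensities that the authors had normalized with the RMA algorithm, so a difference of 1 is a doubling, and levels of different genes are not compared because probes differ in brightness. The 8 hepatocyte markers looked up (Alb and Ttr among them) had a mean level of 12.35 to 12.46 in combination livers, 12.39 to 12.46 in AAV-IFNα livers and 12.36 to 12.49 in Mock livers. Of these 8, 0 were called in any comparison by limma, with 1 at an unadjusted p under 0.05 (lower in AAV-IFNα livers than in Mock livers). In that comparison 5.06% of all tested probe sets were called lower and 11.2% higher, so 0 of 8 cannot show that hepatocyte content was unchanged. Alb lay close to the highest value of all arrays (13.66), where a change could be missed.

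In the mevalonate pathway acetyl-CoA becomes mevalonate, then isoprenoid diphosphates and squalene, which is closed into lanosterol and trimmed to cholesterol. The genes of this route share a transcription factor, the product of Srebf2, which is held in the endoplasmic reticulum by Scap and Insig proteins while sterols are plentiful and is cut free and enters the nucleus when they are scarce. Lipogenesis turns citrate into acetyl-CoA, malonyl-CoA and palmitate, and in liver it is switched on after feeding by insulin through Srebf1 and by glucose through Mlxipl, so its genes are known to vary with the last meal.

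The promoters of these genes were searched for the motifs of their known regulators. Of the 31 genes, 26 have an entry in the RefSeq promoter table (build GRCm38.p6), which holds 300 bases a start site, from 250 before to 50 after it. The 26 include Tm7sf2 and Srebf1, which have no probe set here, and lack Stard4, Fdps, Fdft1, Sqle and Scd1. The sterol and lipogenic members counted by promoter are thus not the same sets as those measured. On either strand, 3 motifs were searched by their letters, TCACNCCAC for a sterol response element, CACGTG for an E-box and CCAAT for the box that binds NF-Y, a factor that works beside the Srebf2 product. A gene with several start sites counted where any window held the motif. CCAAT was found in 24 of 26 members (92.3%), against 41.1% of all 27025 genes in the table, and in 16 of 16 sterol members and 8 of 10 lipogenic members. The E-box was found in 4 of 26 (15.4%) against 8.09%, and TCACNCCAC in 1 of 26 (3.85%) against 1.44%. No match of one motif overlapped a match of another. A match is a run of letters and was not tested as a binding site, and a motif without a match is only not written that way in this window. The windows printed are those of Hmgcs1, the member with the sterol response element, Cyp51 and Nsdhl, whose expression changed in the arrays, and Fasn of the lipogenic branch. Each runs 5′ to 3′ on the gene's strand, with motif matches in capitals (ATTGG is CCAAT on the opposite strand, and in Fasn a match on each strand shares letters). Hmgcs1 lies at chr13:119690101-119690400 (plus strand), Cyp51 at chr5:4104648-4104947 (minus), Nsdhl at chrX:72918271-72918570 (plus) and Fasn at chr11:120824498-120824797 (minus).
Hmgcs1: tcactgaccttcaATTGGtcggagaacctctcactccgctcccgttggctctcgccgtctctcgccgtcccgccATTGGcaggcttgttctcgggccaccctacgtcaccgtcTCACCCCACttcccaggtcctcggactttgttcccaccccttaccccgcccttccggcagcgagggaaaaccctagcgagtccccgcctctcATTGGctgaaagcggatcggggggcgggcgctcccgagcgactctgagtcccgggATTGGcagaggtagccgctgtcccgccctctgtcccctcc
Cyp51: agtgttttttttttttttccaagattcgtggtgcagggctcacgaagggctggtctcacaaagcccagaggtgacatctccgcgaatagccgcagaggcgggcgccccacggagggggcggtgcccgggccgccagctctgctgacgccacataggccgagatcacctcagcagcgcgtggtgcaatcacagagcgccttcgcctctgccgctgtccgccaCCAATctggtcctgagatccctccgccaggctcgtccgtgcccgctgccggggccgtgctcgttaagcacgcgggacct
Nsdhl: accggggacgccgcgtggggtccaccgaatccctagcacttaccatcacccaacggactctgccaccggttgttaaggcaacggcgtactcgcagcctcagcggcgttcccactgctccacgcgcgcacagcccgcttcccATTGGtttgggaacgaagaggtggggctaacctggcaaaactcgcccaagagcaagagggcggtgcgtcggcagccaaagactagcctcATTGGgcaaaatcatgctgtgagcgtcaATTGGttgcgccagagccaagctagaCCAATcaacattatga
Fasn: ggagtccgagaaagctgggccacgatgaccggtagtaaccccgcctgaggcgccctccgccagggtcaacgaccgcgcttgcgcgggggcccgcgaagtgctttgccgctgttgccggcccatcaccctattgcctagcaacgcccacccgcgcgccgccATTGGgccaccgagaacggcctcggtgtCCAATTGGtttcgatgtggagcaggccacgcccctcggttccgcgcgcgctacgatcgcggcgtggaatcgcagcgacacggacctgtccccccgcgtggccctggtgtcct
The TCACNCCAC match of Hmgcs1 stands between 4 CCAAT boxes, and Nsdhl also has 4, Fasn 3 and Cyp51 1.

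Before the groups were compared, each array was set against the other arrays of its group. Mock 2 stood apart: it was the highest of all 9 arrays for 29 of 29 members, whereas it was the highest Mock array for 36.5% of all tested probe sets. Its median difference from the mean of the other Mock arrays was 2.10 over the lipogenic members (0.60 to 3.18) and 0.84 over the sterol members (0.33 to 1.62), and 0.015 over all tested probe sets. It lay more than 1 above both other Mock arrays for 9 of 10 lipogenic and 6 of 19 sterol members, and for 0.483% of all tested probe sets. Elovl6, which lengthens palmitate, had log2 values of 9.22, 12.37 and 9.68 in Mock 1 to 3, and Pnpla3, a lipid droplet enzyme, had 6.13, 9.76 and 7.03. A smaller shift of the same direction was seen in AAV-IFNα 2, the highest of its group for 29 of 29 members (39.4% of all tested probe sets), with a median difference of 0.88 over the lipogenic and 0.42 over the sterol members. In the combination group, replicate 2 was the highest for 22 of 29 members (28.8% of all tested probe sets) and replicate 1 the lowest for 20 of 29. The replicate numbers pair no mice across groups as far as the labels say.

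**Figure D1:**
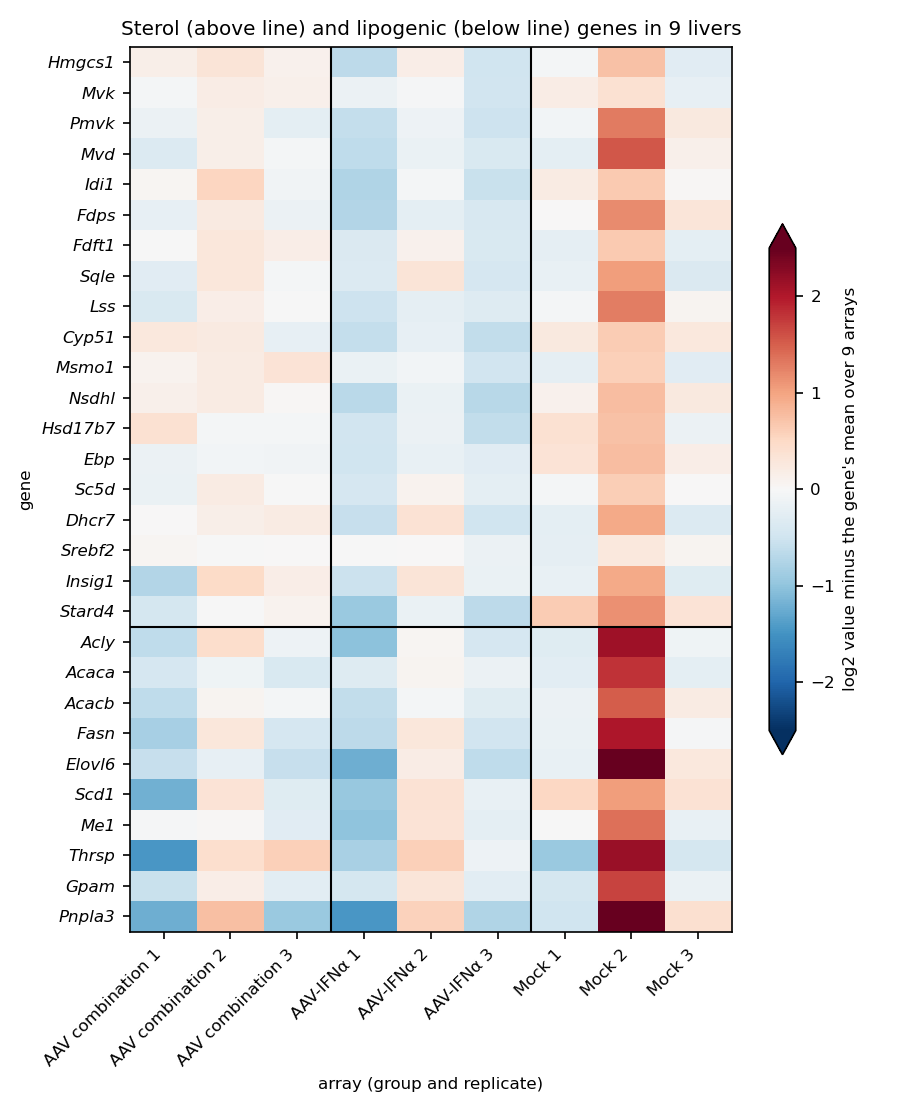
Log2 value of each of the 29 members minus that gene's mean over the 9 arrays (colour, blue lower and red higher, values past the ends of the scale in the end colour), with sterol genes above the horizontal line and lipogenic genes below it, and the arrays of the AAV combination, AAV-IFNα and Mock groups from left to right. Mock 2 is red in every row, most of all in the lipogenic rows.

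With this array in the group, the Mock spread was wide. Over the lipogenic members the median SD within a group (n = 3 arrays) was 0.46 in combination livers, 0.60 in AAV-IFNα livers and 1.21 in Mock livers. Over the sterol members it was 0.20 in combination livers, 0.25 in AAV-IFNα livers and 0.49 in Mock livers, and over all tested probe sets 0.15, 0.16 and 0.17 in the same order. Genes of feeding and fasting moved with the array as well, but not all of them. Pck1, a gluconeogenic enzyme that rises in fasting, had log2 values of 11.47, 9.07 and 11.60 in Mock 1 to 3 and Igfbp1, another insulin-repressed gene, 8.65, 7.18 and 8.98, both low in Mock 2 (chosen after their values were seen). G6pc (11.30, 10.81 and 10.53 in Mock 1 to 3) and Ppargc1a (7.28, 7.67 and 7.66) were not lowest in Mock 2. Both were named after their values were seen, and the other genes measured were lowest there, some by a small margin. The mean level of the 11 feeding and fasting genes measured was 9.12, 8.23 and 9.06 in Mock 1 to 3, and their part in the result was not tested. Without Mock 2 is therefore given beside each comparison of the members.

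The first comparison asked what AAV-IFNα did to these genes. Sterol synthesis genes were lower in AAV-IFNα livers than in Mock livers: 8 of the 19 sterol members (42.1%) fell and 0 rose, at a Benjamini-Hochberg adjusted p under 0.05 in limma's two-sided test across all 14715 probe sets. None of the 10 lipogenic members was called, although 3 had an unadjusted p under 0.05. Over all members, 8 of 29 (27.6%) were called lower, while 5.06% of all tested probe sets were called lower and 11.2% higher (745 and 1655, or 1161 and 1399 after quantile normalization). The estimate was below 0 for 29 of 29 members, against 52.5% of all tested probe sets, and the median was -0.74, against -0.022. Without Mock 2, the highest array for every member, 9 members changed sign. The medians were then -0.34 for the sterol and -0.24 for the lipogenic members. Whole liver was measured, so fewer cells of a type and less RNA per cell cannot be told apart, and the p-values measure only the spread between these mice.

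The genes that fell sat in the isoprenoid steps, in the trimming of the sterol ring and in sterol transport. Stard4 (chr18:33199138-33213862, RefSeq GRCm38.p6 for this and the following positions), a carrier of cholesterol between membranes inside the cell, had log2 values of 7.93, 8.36 and 8.46 in combination livers, 7.44, 8.21 and 7.72 in AAV-IFNα livers and 9.01, 9.51 and 8.70 in Mock livers. All AAV-IFNα arrays lay below all Mock arrays, and 2 of the combination arrays lay between those groups. The change was -1.28 ± 0.23 on the log2 scale (SE, as in the following estimates), or 2.44-fold lower (limma adjusted p = 0.00202), the largest of the called members.

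Of the isoprenoid steps, Pmvk, Idi1 and Fdps fell. Fdps (chr3:89093588-89101967) makes farnesyl diphosphate, the branch point to squalene. Its log2 values were 8.12, 8.54 and 8.17 in combination livers, 7.59, 8.07 and 7.92 in AAV-IFNα livers and 8.32, 9.50 and 8.61 in Mock livers, with no overlap between AAV-IFNα and Mock and with Mock 2 far above the rest. The change was -0.95 ± 0.25 (limma adjusted p = 0.0212). Pmvk (chr3:89454541-89469014), the kinase of phosphomevalonate, had 8.28, 8.57 and 8.18 in combination livers, 7.84, 8.30 and 7.90 in AAV-IFNα livers and 8.36, 9.72 and 8.66 in Mock livers. Here the gap between AAV-IFNα 2 and Mock 1 was narrow and Mock 2 again stood high. The change was -0.90 ± 0.28 (limma adjusted p = 0.0417). Idi1 (chr13:8885606-8892396), which isomerises isopentenyl diphosphate, had 9.75, 10.23 and 9.61 in combination livers, 8.95, 9.66 and 9.14 in AAV-IFNα livers and 9.91, 10.36 and 9.72 in Mock livers. AAV-IFNα 2 came close to Mock 3, and the combination arrays overlapped both groups. The change was -0.75 ± 0.22 (limma adjusted p = 0.0352).

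Each of these 3 calls ended when a single array was left out. Fdps was not called without AAV-IFNα 1 (-0.81, adjusted p = 0.0836). The Idi1 call ended without Mock 1 (adjusted p = 0.0648), without Mock 2 (-0.56, adjusted p = 0.106), without AAV-IFNα 1 (adjusted p = 0.131) and without AAV-IFNα 3 (adjusted p = 0.0881). Of the 9 arrays left out in turn, Pmvk kept its call only without Mock 1, and without Mock 2 it stood at -0.50 (limma adjusted p = 0.0843), with adjusted p between 0.0525 and 0.123 when any other array was left out.

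After lanosterol, Cyp51, Nsdhl, Hsd17b7 and Ebp fell. Cyp51 (chr5:4080674-4104697), the P450 that demethylates lanosterol, had log2 values of 10.23, 10.20 and 9.76 in combination livers, 9.37, 9.76 and 9.34 in AAV-IFNα livers and 10.22, 10.59 and 10.22 in Mock livers. Every AAV-IFNα array was below every Mock array, and 2 combination arrays were at the Mock level. The change was -0.85 ± 0.17, or 1.81-fold lower (limma adjusted p = 0.00454). Nsdhl (chrX:72918521-72958528), a dehydrogenase that helps to take methyl groups off the ring, had 10.08, 10.16 and 9.99 in combination livers, 9.28, 9.79 and 9.27 in AAV-IFNα livers and 10.06, 10.73 and 10.20 in Mock livers. The AAV-IFNα arrays were below all arrays of both other groups, and the combination and Mock arrays overlapped. The change was -0.88 ± 0.19, or 1.85-fold lower (limma adjusted p = 0.00608).

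Ebp (chrX:8185329-8193512), the isomerase that shifts a double bond in the ring, had 9.34, 9.42 and 9.40 in combination livers, 8.98, 9.31 and 9.21 in AAV-IFNα livers and 9.82, 10.27 and 9.65 in Mock livers. Its groups kept apart in the order AAV-IFNα, combination and Mock from low to high. The change with AAV-IFNα was -0.74 ± 0.16 (limma adjusted p = 0.00686). Hsd17b7 (chr1:169949535-169969242), the keto reductase of the same demethylation steps, had 9.29, 8.85 and 8.86 in combination livers, 8.43, 8.77 and 8.29 in AAV-IFNα livers and 9.28, 9.63 and 8.76 in Mock livers. AAV-IFNα 2 and Mock 3 overlapped by a small margin. The change was -0.73 ± 0.21 (limma adjusted p = 0.0339), and the call ended without Mock 1 (adjusted p = 0.0873), Mock 2 (-0.52, adjusted p = 0.103), AAV-IFNα 1 (adjusted p = 0.0948) or AAV-IFNα 3 (adjusted p = 0.0989).

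**Figure D2:**
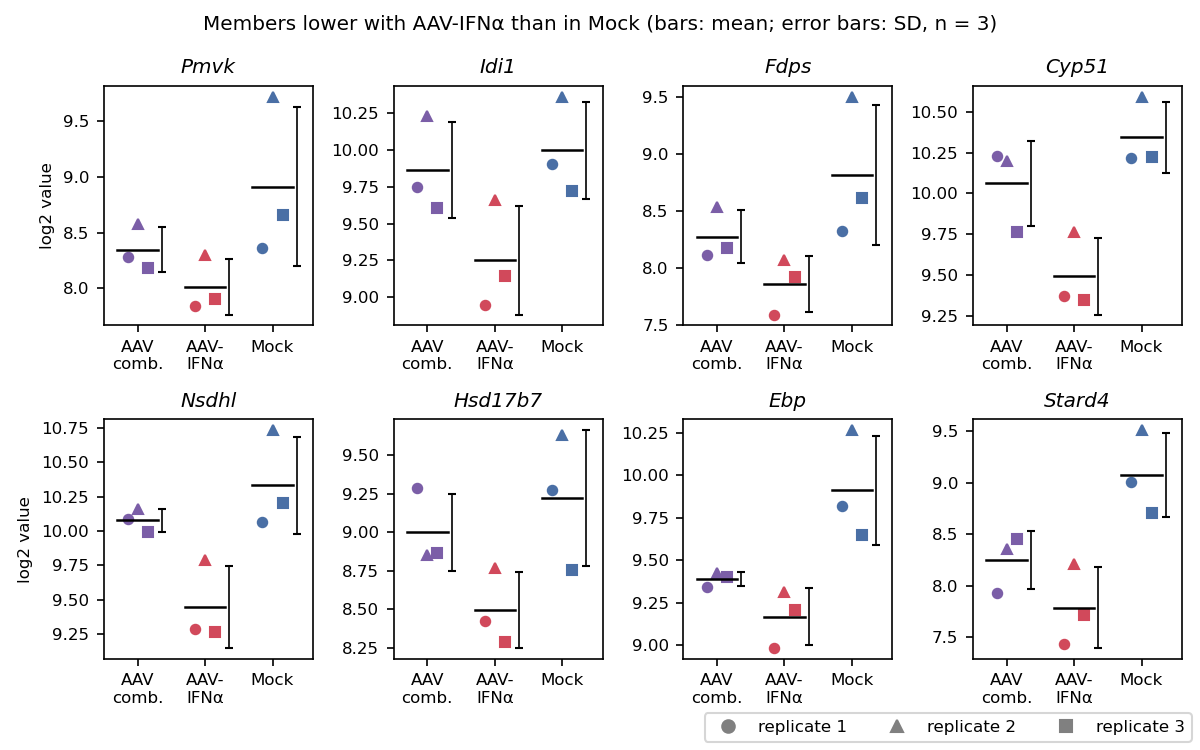
Log2 values of the 8 sterol members called lower in AAV-IFNα livers, 1 panel a gene with its own axis, with points for arrays (marker by replicate), horizontal lines for group means and error bars for the SD (n = 3). Means are lowest in AAV-IFNα livers in all 8 panels, with Ebp at 9.17 in AAV-IFNα livers and 9.91 in Mock livers.

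The other 11 sterol members were not called, with estimates between -0.88 and -0.085. Mvd, which decarboxylates mevalonate diphosphate, stood at -0.88 ± 0.34 (adjusted p = 0.0984) and Lss, which closes squalene epoxide into lanosterol, at -0.78 ± 0.28 (adjusted p = 0.0741), both with Mock 2 more than 1 above the other Mock arrays. Hmgcs1, at the head of the pathway, was at -0.46 (95% interval -0.99 to 0.081) and Mvk, the mevalonate kinase, at -0.34. The estimates were -0.27 for Fdft1, the squalene synthase, -0.31 for Sqle, the squalene epoxidase, and -0.27 for Msmo1, a methylsterol oxidase. For Sc5d, a sterol desaturase, the estimate was -0.38, and for Dhcr7, the reductase of the last step, it was -0.36. Of the regulators, the transcription factor gene Srebf2 was nearest to 0 of all members, at -0.085 (95% interval -0.38 to 0.21), and Insig1 was at -0.29 (-1.04 to 0.47).

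Without Mock 2, 5 of the 8 calls held and 0 members were gained, while 4.52% of the probe sets tested then were called lower. The 5 were Stard4 (-1.07, limma adjusted p = 0.00694), Cyp51 (-0.73, adjusted p = 0.0174), Nsdhl (-0.68, adjusted p = 0.0185), Ebp (-0.57, adjusted p = 0.0200) and Fdps (-0.61, adjusted p = 0.0439). The sterol median then stood at -0.34, and 9 members that were not called changed sign, 6 of them sterol genes (Fdft1, Sqle, Msmo1, Dhcr7, Srebf2 and Insig1) and 3 lipogenic (Acaca, Thrsp and Gpam). Cyp51, Ebp, Nsdhl and Stard4 were called in all 19 alternatives run for this comparison at this threshold. The count of members called was 4 without AAV-IFNα 1, 5 without AAV-IFNα 3 and 10 without Mock 1, where Mvd, Lss, Acacb and Elovl6 were gained. Of all probe sets tested, 381 of 14623, 685 of 14659 and 452 of 14530 were called lower in the same order. The methods counted a change at a B-statistic above 0, where 2 members (Stard4 and Cyp51) and 0.815% of all tested probe sets were lower.

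The lipogenic members had larger estimates and wider spreads. Their median with AAV-IFNα was -0.86 against Mock, and 0 of 10 were called. Acly, which makes acetyl-CoA from citrate, had log2 values of 9.36, 10.44 and 9.98 in AAV-IFNα livers and 10.09, 12.50 and 10.28 in Mock livers, a difference of -1.03 (95% interval -2.13 to 0.067). Acaca and Acacb, the carboxylases that make malonyl-CoA, were at -0.56 and -0.84. Fasn, which assembles palmitate, had 9.34, 10.26 and 9.51 in AAV-IFNα livers and 9.81, 12.01 and 9.94 in Mock livers, a difference of -0.89 (-1.92 to 0.15). In both genes AAV-IFNα 2 lay above Mock 1 and Mock 3, and Mock 2 lay far above all.

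Scd1, the desaturase that makes oleate from stearate, was the one lipogenic member without overlap between AAV-IFNα (11.20, 12.50 and 11.96) and Mock (12.67, 13.19 and 12.50), by a margin smaller than the rounding. Its difference was -0.90 ± 0.36 (limma adjusted p = 0.106). Elovl6 was at -1.57 ± 0.61 (adjusted p = 0.0966), with 8.19, 9.61 and 8.77 in AAV-IFNα livers, and Pnpla3 at -1.55 ± 0.78 (adjusted p = 0.191), with 5.17, 7.21 and 5.88. Both differences rested largely on Mock 2 and stood at -0.59 and -0.49 without it. Me1, a source of NADPH, was at -0.70, Gpam, which starts glycerolipid synthesis, at -0.50 and Thrsp, a lipogenic cofactor, at -0.38, and without Mock 2 the estimates were -0.21 for Me1, 0.17 for Gpam and 0.57 for Thrsp. The lipogenic median without Mock 2 was -0.24, with 0 of 10 called and 0 at an unadjusted p under 0.05.

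**Figure D3:**
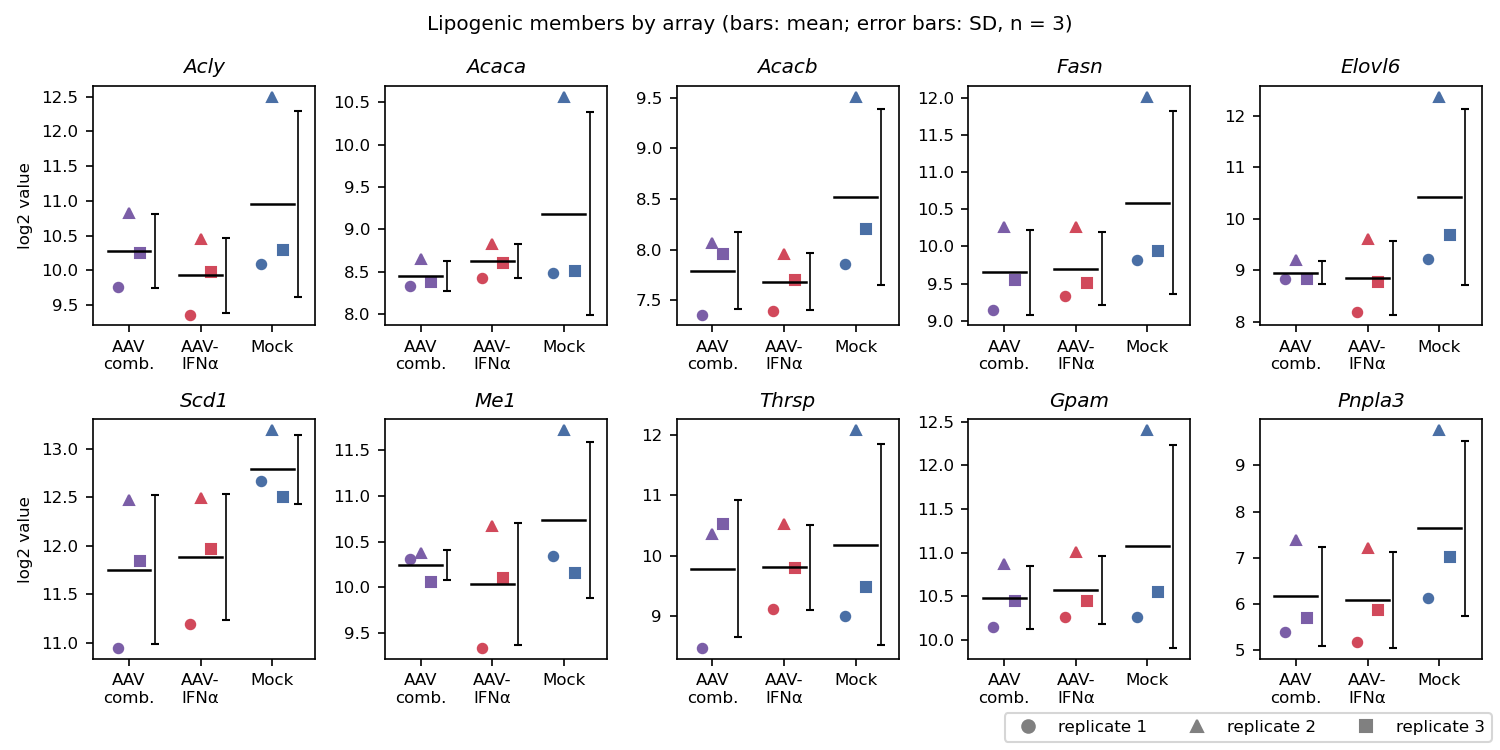
Log2 values of the 10 lipogenic members, 1 panel a gene with its own axis, with points for arrays (marker by replicate), horizontal lines for group means and error bars for the SD (n = 3). In all panels the triangle of Mock replicate 2 is the highest point, at 12.01 in Fasn and 9.76 in Pnpla3.

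**Figure D4:**
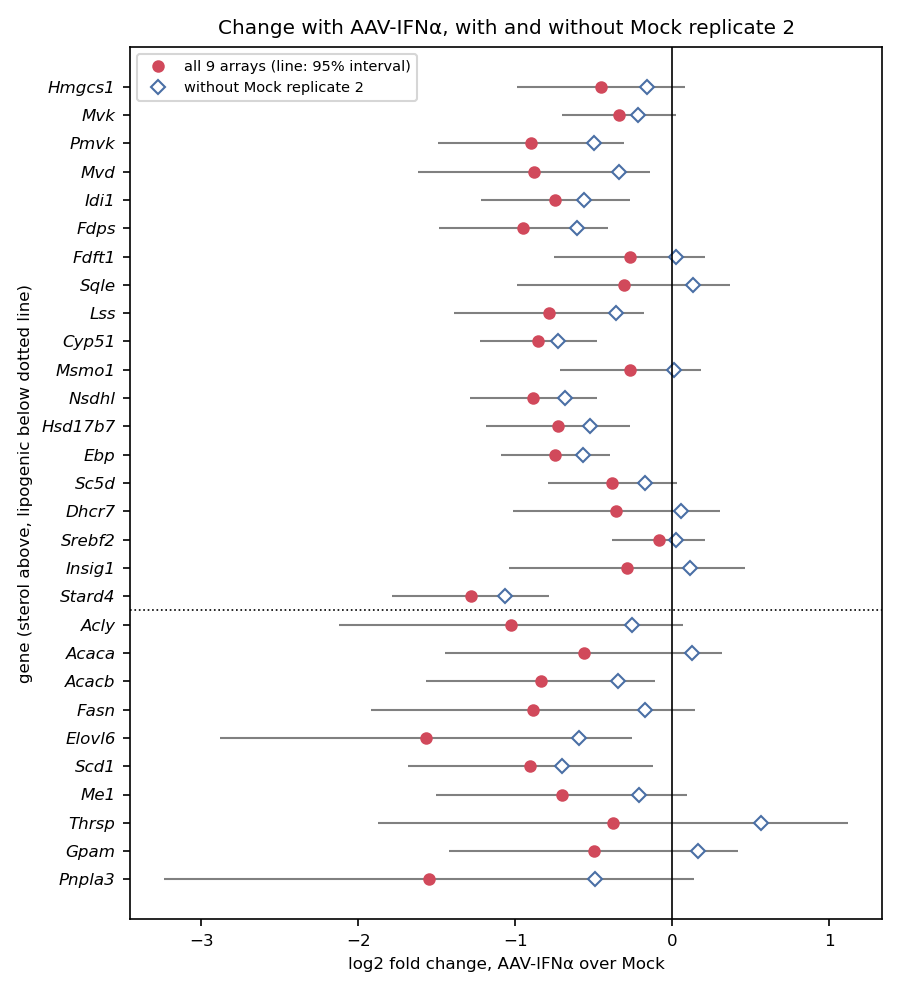
Log2 fold change of AAV-IFNα over Mock for the 29 members, from all 9 arrays (filled circles, with the 95% interval of limma's fit) and without Mock replicate 2 (open diamonds). The open diamonds lie to the right of the circles for all genes, at -1.07 beside -1.28 in Stard4 and at -0.59 beside -1.57 in Elovl6.

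The next comparison asked how these genes stood in combination livers against Mock livers. None of the 29 members was called by limma, with 5 lower and 0 higher at an unadjusted p under 0.05, while 1.03% of all tested probe sets were called lower and 4.19% higher. The sterol median was -0.19 (-0.83 to 0.19) and the lipogenic median -0.73 (-1.47 to -0.40), against 0.0017 over all tested probe sets. Stard4 stood at -0.83 ± 0.23 (adjusted p = 0.0566) and Ebp at -0.52 ± 0.16 (adjusted p = 0.0790), both with no overlap between the groups. Cyp51 was at -0.28 (95% interval -0.66 to 0.090) and Nsdhl at -0.25 (-0.66 to 0.15).

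Of the lipogenic genes, Scd1 had 10.95, 12.47 and 11.84 in combination livers and 12.67, 13.19 and 12.50 in Mock livers, a difference of -1.04 ± 0.36 (limma adjusted p = 0.115). The groups did not overlap, but the combination arrays spread over more than the difference itself. Elovl6, at -1.47 ± 0.61 (adjusted p = 0.177), also did not overlap, with 8.83, 9.21 and 8.83 in combination livers. Without Mock 2 the medians were 0.034 for the sterol and -0.14 for the lipogenic members, and 0 members were called, with 4 at an unadjusted p under 0.05. Those went both ways, with Stard4 (-0.61) and Ebp (-0.35) lower and Msmo1 (0.47) and Fdft1 (0.38) higher in combination livers. Stard4 was called lower without Mock 3 (-1.01, adjusted p = 0.0439), without AAV-IFNα 1 (adjusted p = 0.0480) or without AAV-IFNα 2 (adjusted p = 0.0455).

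The last comparison asked what AAV-L37pA changed when added to AAV-IFNα. None of the 29 members was called by limma, with 5 higher and 0 lower at an unadjusted p under 0.05, while 2.2% of all tested probe sets were called lower and 0.394% higher. The estimate was above 0 for 19 of 19 sterol members (51.1% of all tested probe sets), with a median of 0.35 (0.071 to 0.63), and for 5 of 10 lipogenic members, with a median of 0.030 (-0.17 to 0.35). This comparison shares the AAV-IFNα arrays with the first, so the 2 sets of estimates are not independent.

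Of the sterol members, Nsdhl was at 0.63 ± 0.19 (limma adjusted p = 0.123) with no overlap between combination and AAV-IFNα, Idi1 at 0.61 ± 0.22 (adjusted p = 0.231) and Cyp51 at 0.57 ± 0.17 (adjusted p = 0.133). Hsd17b7 was at 0.51 (95% interval 0.048 to 0.96) and Msmo1 at 0.46 (0.011 to 0.91), both with no overlap. Stard4 differed by 0.46 (-0.040 to 0.96) and Ebp by 0.22 (-0.13 to 0.57). Fdps (0.41) and Ebp did not overlap either, which made 5 of 29 members without overlap. The share without overlap over all probe sets was not counted, so these gaps are only a description. The intervals of the lipogenic members were wide, at -1.08 to 0.98 for Fasn and -1.61 to 1.77 for Pnpla3. Without Mock 2, an array of neither group, Nsdhl was called higher in combination livers (0.63, adjusted p = 0.0483).

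By array, the mean level of the sterol members was 9.12, 9.40 and 9.23 in combination livers, 8.70, 9.19 and 8.77 in AAV-IFNα livers and 9.23, 10.06 and 9.19 in Mock livers. AAV-IFNα 2 thus lay close to the lowest Mock array, and AAV-IFNα 1 and 3 were below all other arrays. For the lipogenic members it was 8.87, 9.85 and 9.35 in combination livers, 8.78, 9.90 and 9.27 in AAV-IFNα livers and 9.39, 11.61 and 9.63 in Mock livers. In that branch the ranges of the 2 injected groups overlapped, and Mock 1 and Mock 3 lay within them. The lowest of the 9 arrays was AAV-IFNα 1 for 10 sterol and 4 lipogenic members, AAV-IFNα 3 for 7 sterol members and combination 1 for 1 sterol and 6 lipogenic members, and Mock 1 for the one left, a sterol member.

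Other genes of the 2 routes were taken from lists of the same pathways. Of 8 further sterol genes tested, 1 fell and 1 rose with AAV-IFNα, where 5.06% of all tested probe sets fell and 11.2% rose. Scap, the escort of the Srebf2 product, had log2 values of 7.77, 8.25 and 8.05 in AAV-IFNα livers and 8.58, 9.32 and 8.39 in Mock livers (-0.74 ± 0.21, limma adjusted p = 0.0301), and Ggps1, which makes geranylgeranyl diphosphate, had 7.17, 7.28 and 7.10 in AAV-IFNα livers and 6.71, 6.50 and 6.71 in Mock livers (0.55 ± 0.16, adjusted p = 0.0294). Neither gene overlapped between these groups. Mock 2 was the highest Mock array for Scap and the lowest for Ggps1, which widens both differences. Estimates without Mock 2 are not given for these further genes. Of 20 further lipogenic genes tested, 5 fell with AAV-IFNα and 0 rose, or 4 of the other 19 without Elovl3, against the same 5.06% and 11.2%. Mlxipl, the glucose-sensing factor, had 9.96, 9.84 and 10.17 in AAV-IFNα livers and 10.48, 10.99 and 10.60 in Mock livers (-0.70 ± 0.16, adjusted p = 0.0115), with Mock 2 again the highest. The desaturases Fads1 (-0.80, adjusted p = 0.0162) and Fads2 (-0.69, adjusted p = 0.0141) and the elongase Elovl3 (-1.47, adjusted p = 0.0125) also fell, as did Idh1, a source of NADPH (-0.55, adjusted p = 0.0235), which was named after its values were seen. For Elovl3 Mock 2 was the lowest Mock array, at 4.37, with 5.34 in Mock 1 and 6.10 in Mock 3, and the gene passed the filter only through its Mock values, so it is no support for the count. None of these further genes was called by limma in combination livers, with 3 lower and 1 higher against Mock and 4 higher against AAV-IFNα livers at an unadjusted p under 0.05.

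Markers of other cells moved with AAV-IFNα. Over all tested probe sets, 11.2% were called higher and 5.06% lower in this comparison. Of 5 monocyte markers tested 3 rose. Each of these passed the filter only through arrays of injected groups, so they are a description and no support for a count. The mean level over the monocyte list was 5.69 to 5.95 in combination livers, 6.10 to 6.95 in AAV-IFNα livers and 4.94 to 5.01 in Mock livers. Of the Kupffer cell markers 3 of 6 rose, and of the lymphocyte markers 2 of 4. Ncr1 of the lymphocyte list passed only through AAV-IFNα arrays and is no support either. Of 5 endothelial markers 3 rose and 1 fell (Stab2, -0.90, limma adjusted p = 0.00230). Of 4 stellate cell markers 1 fell (Lrat, -0.87, adjusted p = 0.00767), and Alas2, the 1 erythroid marker measured, fell as well (-0.51, adjusted p = 0.0441). Their part in the lower sterol values was not tested. Of 13 clock genes tested, 0 were called in any comparison by limma, with 1 at an unadjusted p under 0.05 for AAV-IFNα against Mock.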

How the data were processed

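Livers of 9 mice, 3 a group, were measured on 1 array each. The array is Clariom S and the RNA total RNA in the methods, polyA RNA in the labels, and the array another Affymetrix one in the design text. Per the labels and methods, the authors deposited log2 values that RMA had background-corrected, normalized and summarised per probe set. Values ran from 2.09 to 13.66, array medians from 5.78 to 5.83. Precision is limited by the number of arrays. Groups came from the sample titles. Of 22142 probe sets, 19527 carry 1 symbol in the platform annotation. That annotation names no build, so positions are those of the RefSeq gene of the same symbol in GRCm38.p6. The members and lists were chosen with earlier results of these data known.

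Probe sets above 5 in at least 2 arrays of 1 group entered limma 3.58.1 (R 4.3.3), in 1 fit over all arrays (6 residual and 6.91 prior degrees of freedom), two-sided, with Benjamini-Hochberg adjustment over all 14715 probe sets tested. With 3 arrays against 3, an exact test cannot go below p = 0.10, so no test on single values was used. The rule for named genes was every member, each by its probe set of highest mean, with values by array for those called, and up to 4 further genes a list by smallest p, plus Ch25h and Mlxipl. Some further genes of these pathways are not reported here. Alternatives were a replicate block, array weights, a filter above 6 or none, quantile normalization, median centring, only the 2 groups compared, a prior that was trended and robust, 1 probe set per gene, the B-statistic above 0 (prior proportion 0.01) and leaving out each array. The method was also run on simulated arrays with planted changes and independent noise. These held no array shifted over a set of genes, as Mock 2 is, so they cannot test the calls against such a shift. Promoters were searched in Python 3.11.15, and figures drawn with matplotlib 3.10.9.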

Additional observations from a re-analysis of the deposited data

How the results depend on the processing

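For AAV-IFNα against Mock, the 8 members called became 2 at a B-statistic above 0, and with 1 array left out between 4 and 10. Over all probe sets, the number called lower was 745 with all arrays and between 381 and 766 with 1 left out. For the combination against Mock, 0 became 1 with a filter above 6 (Stard4) and 2 with quantile normalization (Stard4 and Ebp), and between 0 and 1 with 1 array left out. All of these were lower, where 148 of 11094 and 194 of 14652 probe sets were lower, and between 26 and 161 with 1 array left out. For the combination against AAV-IFNα, 0 became 1 with array weights (Nsdhl), between 0 and 1 with 1 array left out, and 3 with Mock 2 and AAV-IFNα 2 both left out, a setting chosen after seeing the data. All of these were higher, where 86 of 14715 probe sets, between 16 and 69, and 59 of 14450 were higher in the same order. The cause of these changes was not tested, except that fewer arrays or probe sets entered some of them.

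The replicate number as a block gave 16 members lower for AAV-IFNα against Mock and 5 lower for the combination against Mock. For the combination against AAV-IFNα it gave 2 higher. Of all 14715 probe sets tested, 753, 171 and 76 were called in the same directions and order. The labels give the numbers no meaning across groups. Over all tested probe sets, deviations of same-numbered arrays correlated between -0.13 and 0.22, over 0.1 in 3 of 9 pairs. Those of arrays with other numbers correlated between -0.25 and 0.19. Among the members, replicate 2 was the highest of its group for 29 of 29 in Mock, 29 in AAV-IFNα and 22 in the combination. Whether the numbers mark a shared factor was not tested.

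The sterol median for AAV-IFNα against Mock lay between -0.88 and -0.34 with 1 array left out. With 1 array left out, estimates for AAV-IFNα against Mock lay between -0.43 and 0.024 for Fdft1, -0.57 and 0.13 for Sqle, -0.42 and 0.015 for Msmo1, -0.65 and 0.055 for Dhcr7, -0.21 and 0.026 for Srebf2, -0.51 and 0.11 for Insig1, -0.92 and 0.12 for Acaca, -0.97 and 0.57 for Thrsp, and -0.90 and 0.17 for Gpam, above 0 only without Mock 2 and never called. With Mock 2 and AAV-IFNα 2 both left out, 0.020 for Acaca and 0.21 for Thrsp were above 0. Idi1 in the combination against Mock lay between -0.32 and 0.049, at 0.049 also with both left out. Without Mock 2, other uncalled members below 0 in the combination against Mock were above it as well, namely Mvk (0.092), Sqle (0.27), Sc5d (0.034), Srebf2 (0.098), Insig1 (0.21), Acly (0.091), Thrsp (0.55) and Gpam (0.080).

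The other medians moved as well, and some changed sign. For the combination against Mock, the sterol median lay between -0.35 and 0.034 with 1 array left out (above 0 only without Mock 2) and the lipogenic median between -1.09 and -0.14 (the higher also without Mock 2). For the combination against AAV-IFNα, the lipogenic median lay between -0.27 (without combination 2) and 0.29 (without AAV-IFNα 2). For AAV-IFNα against Mock, it lay between -1.10 (without AAV-IFNα 2) and -0.24 (without Mock 2).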

Other observations

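Genes around oxysterols and the LXR receptors, which sense them and drive sterol export, went both ways in AAV-IFNα livers. Of the 9 such genes tested other than Ch25h, 3 rose and 1 fell against Mock, where 11.2% of all tested probe sets rose and 5.06% fell. Ch25h passed the filter on low values only through its AAV-IFNα arrays, so its values are a description. This gene, which makes an oxysterol from cholesterol and is known as an interferon-induced gene, had log2 values of 4.64, 4.53 and 4.56 in combination livers, 5.64, 5.86 and 5.12 in AAV-IFNα livers and 4.88, 4.90 and 4.49 in Mock livers. All AAV-IFNα arrays lay above all other arrays. Cyp7b1, an oxysterol hydroxylase, had 7.48, 8.25 and 7.92 in AAV-IFNα livers and 7.06, 7.01 and 6.98 in Mock livers (0.87 ± 0.18, limma adjusted p = 0.00553). Nr1h3, an LXR receptor gene, rose by 0.63 (adjusted p = 0.00717), Abcg5, a sterol exporter, by 0.57 (adjusted p = 0.0344), and Cyp27a1, a sterol hydroxylase named after its values were seen, fell by 0.45 (adjusted p = 0.0340).

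In combination livers, 2 of these 9 rose against Mock, where 4.19% of all probe sets rose, Cyp7b1 by 1.00 (limma adjusted p = 0.00564) and Abcg5 by 0.74 (adjusted p = 0.0222). Abcg5 had 9.81, 9.27 and 9.89 in Mock 1 to 3, so the low Mock 2 widens both of its rises. Estimates without Mock 2 are not given for these genes.

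In the feeding and fasting list, 2 of 11 genes fell with AAV-IFNα and 0 rose, against 5.06% of all probe sets lower and 11.2% higher. Cyp4a14, a fatty acid hydroxylase under PPARα, had 9.62, 7.30 and 8.53 in AAV-IFNα livers and 12.01, 10.07 and 11.61 in Mock livers (-2.75 ± 0.73, limma adjusted p = 0.0224), with replicate 2 the lowest array in both groups. In combination livers it had 11.68, 9.26 and 8.57, with replicate 3 the lowest. Pdk4, a kinase that restrains glucose oxidation, was at -0.71 (adjusted p = 0.0142).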
